A study of Mus musculus with 6 samples.

Results

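Acetylation of lysines is written by acetyltransferases, removed by histone deacetylases and sirtuins, and read by proteins with a bromodomain. The expression of 42 genes of this machinery was measured in IL-4-treated bone marrow-derived macrophages (BMDMs) with and without a myeloid deletion of *Acly*. The genes were listed by name, with earlier results of these data known, and all 42 were found among the 24445 genes of the count table. They comprise 13 acetyltransferases and nuclear receptor coactivators, 11 zinc-dependent deacetylases, 7 sirtuins and 11 bromodomain proteins.

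*Acly* encodes ATP citrate lyase, which splits citrate into oxaloacetate and the acetyl-CoA that acetyltransferases in the cytosol and nucleus use as their acetyl donor. Zinc-dependent deacetylases release the acetyl group by hydrolysis, whereas sirtuins transfer it to NAD+. Bromodomains bind acetylated lysines and bring chromatin remodelers, acetyltransferase complexes or the transcription machinery to them, which in macrophages contributes to the control of inducible genes. The comparison addressed here is therefore whether cells with a deletion of *Acly* express the enzymes and readers of acetylation at other levels.

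Both groups consisted of BMDMs of female mice on a C57Bl/6J background, grown for 7 days and then given IL-4 at 100 U/mL for 24 h. The 3 Acly M-KO libraries came from mice in which Cre expressed from the *Lyz2* promoter, which is active in macrophages and also in neutrophils, deletes exon 9 of floxed *Acly*. The 3 control (Ctrl) libraries came from Acly fl/fl mice, so both groups carry the floxed allele. The ages of the mice are not given in the sources used here. The study calls the replicates biological in its statistics section and technical, from 3 pooled mice, in a figure legend, so that the p-values measure the spread between libraries, which may be technical. The libraries held 12151975 to 15587283 counts on the transcripts used.

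*Acly* itself had 4917, 3925 and 4606 counts in Ctrl against 2140, 2078 and 1978 counts in Acly M-KO, which left 41.4% of the scaled Ctrl level (edgeR, Benjamini-Hochberg adjusted p = 5.23e-10). These counts are per transcript rather than for exon 9. Neither ACLY protein nor acetyl-CoA was measured here, so how complete the loss was is not known. All 7 macrophage markers examined were expressed, with summed levels of 13360 to 14670 counts scaled to library size (CPM) in Ctrl and 11050 to 11500 CPM in Acly M-KO. Of these 7 genes, *Lyz2*, *Mertk*, *Itgam* and *Csf1r* fell and *Adgre1* rose. *Lyz2*, a large part of these sums, had 7116, 6088 and 6569 CPM in Ctrl against 4002, 4219 and 4198 CPM in Acly M-KO. Its promoter drives Cre in the Acly M-KO mice, so its fall cannot be told apart from the presence of the Cre driver. The 8 neutrophil markers summed to 12.1 to 13.3 CPM in Ctrl against 18.6 to 19.1 CPM in Acly M-KO, where *S100a8* and *S100a9* rose, while *Ly6g*, *Mpo* and *Elane* were at most 0.32 CPM in every library. The 4 T cell markers summed to 14.2 to 17.7 CPM in Ctrl against 9.82 to 12.4 CPM in Acly M-KO, nearly all of it *Cd4*, which fell, with *Cd3e* and *Cd3d* at most 0.15 CPM. Markers of dendritic cells (at most 4.09 CPM), B cells (0.64 CPM) and fibroblasts (1.3 CPM) were low. None of 9 proliferation genes passed the edgeR test, 2 had an unadjusted p under 0.05, and DESeq2 and limma-voom also called 0. The part of these marker shifts in the results below was not tested, and in bulk RNA fewer cells of a type and less RNA per cell cannot be told apart.

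Most genes of the acetylation machinery did not pass the test for a difference between Acly M-KO and Ctrl BMDMs, and the largest change among them was a rise of *Brd2*. A gene passed the test with an adjusted p under 0.05 by edgeR's quasi-likelihood test with Benjamini-Hochberg adjustment over the 12023 genes with enough counts, which included 41 of the 42. Of these 41, 7 rose and 5 fell, or 12 in all (29.3%), against 24.9% of all genes tested, with 12.4% higher and 12.6% lower. The share of changed genes was thus close to that of the transcriptome. The risen genes were *Brd2*, *Hdac7*, *Hdac10*, *Brd9*, *Kat5*, *Sirt1* and *Brd1*, and the fallen genes were *Ncoa2*, *Baz2a*, *Baz2b*, *Brpf1* and *Ncoa3*. With the additional limit of 0.58 on the log2 scale that the study used for fold changes, *Brd2* and *Hdac7* were left on the higher side, where 2.98% of all genes were called, and no gene on the lower side, where 2.57% were called (5.55% in either direction). By DESeq2, without the fold limit, 3 rose and 3 fell, where 9.13% of all genes were called higher and 9.37% lower (18.5% in either direction, against 24.9% with edgeR). In edgeR fits without Acly M-KO 1, 2 or 3, the numbers of risen genes were 3, 4 and 4 and those of fallen genes 3, 1 and 3, while the share of all genes called was 16.9%, 16.3% and 18.3%. Without Ctrl 1, 5 rose and 2 fell, with 21.4% of all genes called. The median log2 fold change was −0.04 over the 41 genes and 0.00 over all genes tested, and the median absolute log2 fold change was 0.12 against 0.15. Between the groups, 16 of the 41 genes did not overlap, against 40.2% of all genes tested. These were the 12 that passed and *Kat2a*, *Kat6b*, *Sirt3* and *Brpf3*, which did not pass. In the plot of fold changes, a positive value means higher in Acly M-KO.

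**Figure D1:**
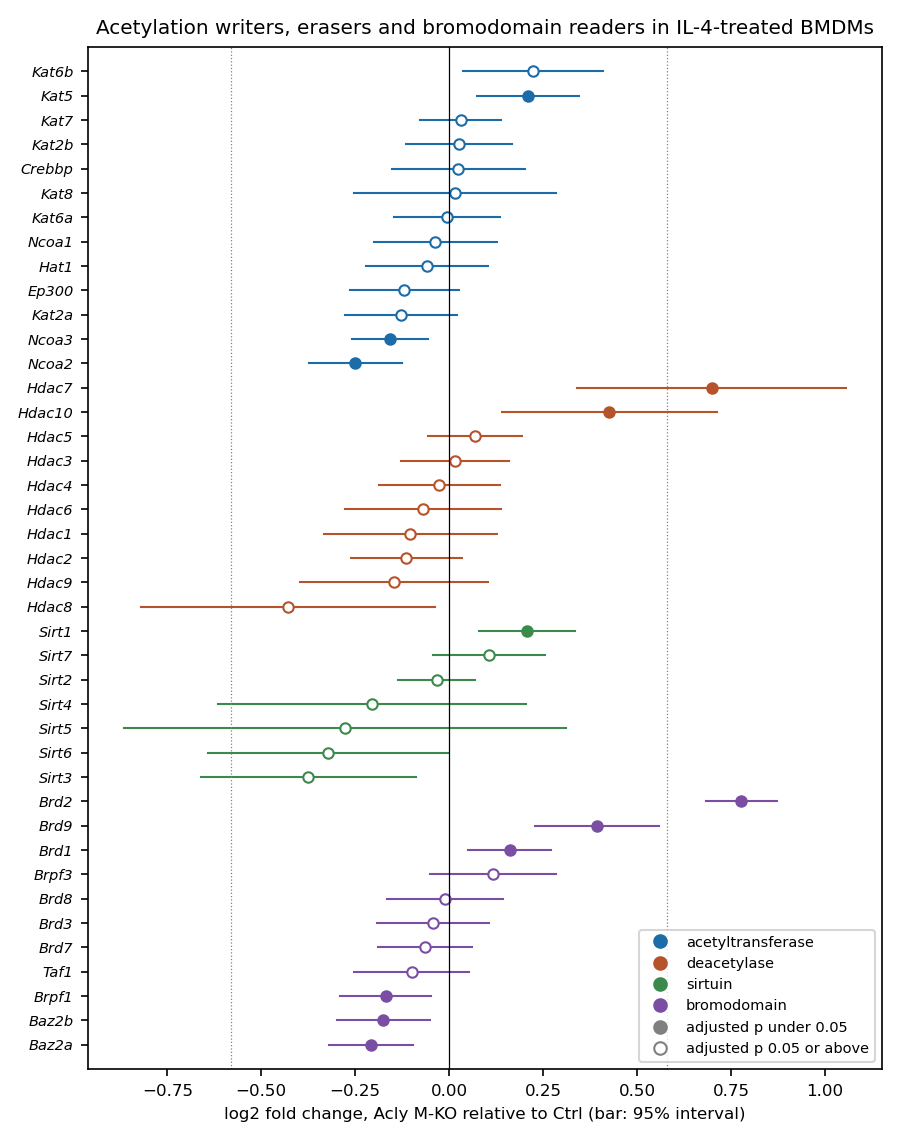
Log2 fold changes of the 41 tested genes, Acly M-KO over Ctrl, by class. Points are edgeR estimates from 3 libraries per group, lines are 95% intervals, filled points mark the 12 genes with an adjusted p under 0.05, and dotted lines mark 0.58 on either side of 0. *Brd2* and *Hdac7* lie beyond the limit of 0.58, and the other 10 filled points lie between it and 0.

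Among the bromodomain proteins, 6 of 11 passed the test (54.5%, against 24.9% of all genes), of which 3 rose and 3 fell. By DESeq2 only 2 rose and 1 fell, and the number of fallen genes was 1 without Ctrl 1 or Ctrl 2 and 0 without Acly M-KO 2. *Brd2*, on chromosome 17 from 34112023 to 34122634 of GRCm38 (GENCODE M21), encodes a BET protein that binds acetylated histone H4 and supports transcription by RNA polymerase II. Its levels were 250.1, 240.5 and 247.4 CPM in Ctrl against 419.0, 419.4 and 426.9 CPM in Acly M-KO. Every Acly M-KO library was far above every Ctrl library, and the libraries of each group differed little among themselves. The log2 fold change was 0.78 (SE 0.045), or 1.71-fold, with an edgeR Benjamini-Hochberg adjusted p of 1.88e-08. By p-value *Brd2* ranked number 9 of the 12023 genes tested, but by the size of the rise number 257. Without any 1 library the log2 fold change stayed between 0.76 and 0.79. The other BET gene measured here, *Brd3*, had 45.01 ± 3.40 CPM in Ctrl against 43.6 ± 2.57 CPM in Acly M-KO (SD, n = 3), and the 95% interval of its log2 fold change ran from −0.19 to 0.11. The libraries were strand-specific, but *Xist* and its antisense gene *Tsix* had 7864 counts each in Ctrl 1, so the counts do not separate strands and reads of overlapping genes may be shared. Exons of the opposite strand cover 9.78% of the exonic bases of *Brd2*, among them those of *H2-DMa*, which had 607 to 906 counts in Ctrl against 590 to 611 in Acly M-KO and fell (log2 fold change −0.51, edgeR Benjamini-Hochberg adjusted p = 1.75e-04), opposite to *Brd2*.

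*Brd9*, a subunit of the non-canonical SWI/SNF remodeling complex, measured 22.8, 22.2 and 24.95 CPM in Ctrl against 31.4, 31.4 and 29.1 CPM in Acly M-KO. The groups did not overlap, and the log2 fold change was 0.39 (SE 0.078, edgeR Benjamini-Hochberg adjusted p = 0.0017). *Brd7*, whose protein belongs to the PBAF form of SWI/SNF, did not pass, with 71.4 ± 4.13 CPM in Ctrl against 68.3 ± 3.49 CPM in Acly M-KO (SD, n = 3).

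The promoter windows of *Brd2*, its relative *Brd3* and *Brd9* are shown because they belong to the bromodomain genes with the strongest rises and to the BET gene for which no change was detected. They come from RefSeq (GRCm38.p6), run from 250 bases before to 50 bases after an annotated start, and are written on the gene's strand from 5′ to 3′. Capitals mark every match, on either strand, to the NRF1 half-site TGCGCA, the ETS core CCGGAAG, the GC box GGGCGG, the E-box CACGTG or a STAT6-type motif, which is TTC and GAA with 4 bases between them. The *Brd2* window is the most upstream of its 3 and lies at chr17:34122558-34122857 on the minus strand, the *Brd3* window at chr2:27475349-27475648 on the minus strand, and the *Brd9* window at chr13:73937561-73937860 on the plus strand.
Brd2: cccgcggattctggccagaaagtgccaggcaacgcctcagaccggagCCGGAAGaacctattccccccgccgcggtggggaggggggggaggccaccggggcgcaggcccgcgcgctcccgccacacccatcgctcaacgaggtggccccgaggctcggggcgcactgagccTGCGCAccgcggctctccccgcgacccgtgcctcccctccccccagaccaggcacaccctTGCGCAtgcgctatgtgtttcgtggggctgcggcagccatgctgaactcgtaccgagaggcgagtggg
Brd3: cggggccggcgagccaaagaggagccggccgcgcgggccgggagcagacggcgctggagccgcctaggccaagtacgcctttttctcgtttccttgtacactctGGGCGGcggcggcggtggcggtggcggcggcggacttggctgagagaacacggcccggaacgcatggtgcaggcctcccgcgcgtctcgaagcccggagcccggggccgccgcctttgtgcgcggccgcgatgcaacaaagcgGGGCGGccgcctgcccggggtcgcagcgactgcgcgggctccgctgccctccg
Brd9: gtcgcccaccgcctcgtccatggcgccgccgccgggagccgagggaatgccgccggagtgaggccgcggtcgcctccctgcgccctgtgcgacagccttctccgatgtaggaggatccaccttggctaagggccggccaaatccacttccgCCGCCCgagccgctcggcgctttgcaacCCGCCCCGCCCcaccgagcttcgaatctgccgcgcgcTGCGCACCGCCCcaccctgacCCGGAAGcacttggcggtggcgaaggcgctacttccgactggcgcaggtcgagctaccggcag

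In the *Brd2* window the capitals are 1 ETS core and 2 NRF1 half-sites, the latter of them just before the annotated start. The other 2 *Brd2* windows hold neither of these motifs and 1 GC box each. The *Brd3* window holds the GC box at 2 places. The *Brd9* window holds it at 4 places, 2 of which share a base, together with 1 NRF1 half-site that adjoins a GC box and 1 ETS core. The E-box and the STAT6-type motif were in none of the 3 windows printed. Windows were found for 35 of the 42 genes, 48 windows in all, and the NRF1 half-site was in 8 of them (16.7%) against 7.76% of all 32851 windows. The ETS core was in 22.9% of the genes' windows and in 8.86% of all windows, the GC box in 66.7% and 35.7%, the E-box in 8.33% and 7.15%, and the STAT6-type motif in 4.17% and 6.95%. The windows of these genes were richer in G and C, with a median of 62% against 52.7%. These matches describe the letters only, and the counts do not show which start was used.

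*Brd1* and *Brpf1*, both scaffolds that hold MYST acetyltransferases on chromatin, moved in opposite directions. *Brd1* had 73.2, 72.5 and 73.9 CPM in Ctrl against 81.7, 78.4 and 85.5 CPM in Acly M-KO (log2 fold change 0.16, SE 0.052, edgeR Benjamini-Hochberg adjusted p = 0.0331). *Brpf1* had 63.7, 64.3 and 59.8 CPM in Ctrl against 55.0, 53.9 and 58.4 CPM in Acly M-KO (−0.17, SE 0.057, edgeR Benjamini-Hochberg adjusted p = 0.0412). Both changes were small, with no overlap between groups. The BAZ2 genes fell together. *Baz2a*, which encodes the large subunit of the nucleolar remodeling complex that silences ribosomal RNA genes, had 154.4, 168.5 and 155.1 CPM in Ctrl against 135.1, 135.9 and 142.7 CPM in Acly M-KO (−0.21, SE 0.052, edgeR Benjamini-Hochberg adjusted p = 0.00868). Its paralog *Baz2b* had 82.2, 87.5 and 76.9 CPM in Ctrl against 76.3, 70.5 and 71.4 CPM in Acly M-KO (−0.18, SE 0.058, edgeR Benjamini-Hochberg adjusted p = 0.0376). For *Baz2b* the gap was narrow, since the highest Acly M-KO library was just below the lowest Ctrl library. *Brd8*, a subunit of the TIP60 complex, *Brpf3* and the TFIID subunit gene *Taf1* did not pass, with log2 fold changes of −0.01, 0.12 and −0.10.

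With DESeq2, the adjusted p rose above the threshold for *Brd1* (0.0977), *Brpf1* (0.111) and *Baz2b* (0.0730). In edgeR, scaling by library totals ended the call of *Brd1* (Benjamini-Hochberg adjusted p = 0.054). Summing the transcripts of a gene ended those of *Brd1* (0.0548) and *Baz2b* (0.0651). Calls were also lost by *Brd1* without Ctrl 1, Ctrl 3, Acly M-KO 1 or Acly M-KO 3 (log2 fold change down to 0.13), by *Brpf1* without Ctrl 1, Ctrl 2, Acly M-KO 1 or Acly M-KO 2 (−0.21 to −0.14 over all 6 removals), by *Baz2b* without Ctrl 1, Ctrl 2, Acly M-KO 2 or Acly M-KO 3 (−0.23 to −0.14), and by *Baz2a* without Acly M-KO 2 (edgeR Benjamini-Hochberg adjusted p = 0.0532).

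**Figure D2:**
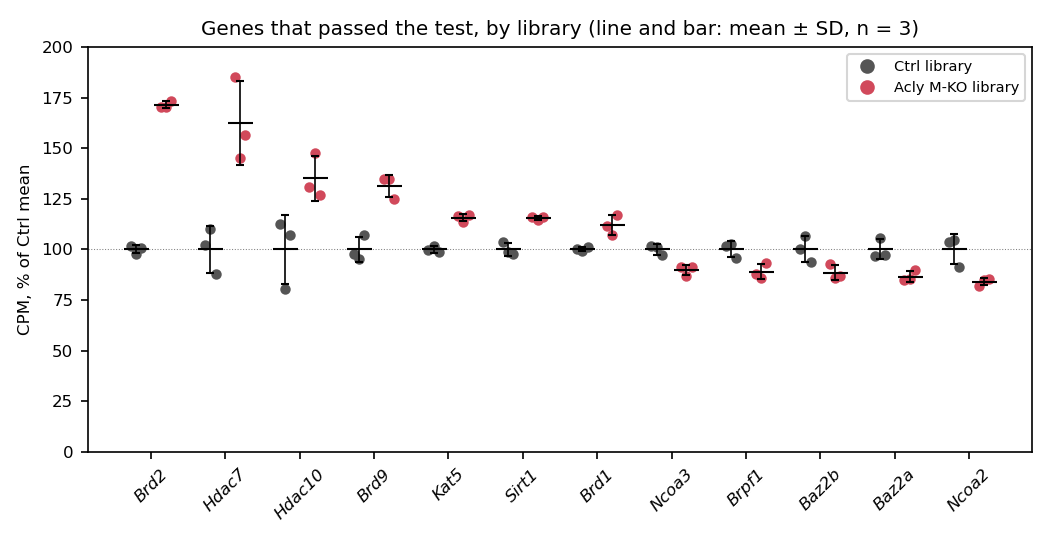
CPM of the 12 genes that passed the test in each of the 6 libraries, as a percentage of the Ctrl mean of that gene. Points are libraries, lines with bars are the mean ± SD (n = 3), and the groups do not overlap for any of these genes, with *Brd2* and *Hdac7* farthest from the Ctrl mean.

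Of the 13 acetyltransferases and nuclear receptor coactivators, 1 rose and 2, both of them coactivators, fell, a share of 23.1% against 24.9% of all genes. *Kat5* encodes TIP60, the catalytic subunit of a complex that acetylates histone H4 and acts in transcription and DNA repair. It had 33.3, 34.0 and 32.9 CPM in Ctrl against 38.9, 37.9 and 39.1 CPM in Acly M-KO (log2 fold change 0.21, SE 0.064, edgeR Benjamini-Hochberg adjusted p = 0.0251). The libraries of each group lay close together and the groups were apart, yet DESeq2 gave an adjusted p of 0.0998, and without Ctrl 1, Ctrl 3 or any 1 Acly M-KO library the call was lost (0.19 to 0.22, edgeR Benjamini-Hochberg adjusted p up to 0.0804). One of the 5 *Kat5* transcripts, with 208 to 269 counts in Ctrl against 296 to 318 in Acly M-KO, shares fewer reads than the others, and with it in place of the transcript used the adjusted p was 0.0902 (edgeR, Benjamini-Hochberg). Opposite-strand exons of *Rnaseh2c* cover 12.1% of the exonic bases of *Kat5*. *Rnaseh2c* did not pass (log2 fold change −0.11, edgeR Benjamini-Hochberg adjusted p = 0.585).

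The coactivators of nuclear receptors *Ncoa2* and *Ncoa3*, which recruit p300 and CBP, fell. *Ncoa2* had 95.3, 96.5 and 84.1 CPM in Ctrl against 75.3, 78.0 and 78.7 CPM in Acly M-KO (log2 fold change −0.25, SE 0.058, edgeR Benjamini-Hochberg adjusted p = 0.0053). *Ncoa3*, which had the highest level of the 13 genes per transcript length, measured 259.1, 257.9 and 247.2 CPM in Ctrl against 232.2, 220.8 and 232.1 CPM in Acly M-KO (−0.16, SE 0.048, edgeR Benjamini-Hochberg adjusted p = 0.0249). For both genes the highest Acly M-KO library was lower than the lowest Ctrl library. The *Ncoa3* call was lost without Ctrl 1 or any 1 Acly M-KO library (−0.18 to −0.13, edgeR Benjamini-Hochberg adjusted p up to 0.134). *Ncoa1* did not pass, at 58.6 ± 6.50 CPM in Ctrl against 57.1 ± 4.36 CPM in Acly M-KO (SD, n = 3).

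No change was detected for the acetyltransferases most often tied to enhancers. *Ep300*, which encodes p300, had a log2 fold change of −0.12 with a 95% interval of −0.26 to 0.03, and *Crebbp*, which encodes CBP, had 0.02 with an interval of −0.15 to 0.20. In both genes the groups overlapped. The GNAT enzymes *Kat2a* (GCN5), *Kat2b* (PCAF) and *Hat1*, which acetylates newly made histone H4, had −0.13, 0.03 and −0.06. Of the other MYST genes, *Kat6a*, *Kat7* and *Kat8* had −0.01, 0.03 and 0.02. *Kat6b* had 0.22, the largest positive value among the genes that did not pass, with an edgeR Benjamini-Hochberg adjusted p of 0.0771. For *Kat2a* and *Kat6b* the groups did not overlap.

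Of the 10 zinc-dependent deacetylases tested, 2 rose and 0 fell, a share of 20% against 24.9% of all genes (12.4% higher, 12.6% lower). On the lower side 1 gene, *Hdac8*, had an unadjusted p under 0.05, and both DESeq2 and limma-voom called 0. *Hdac7* encodes a class IIa deacetylase, a family that binds MEF2 factors and acts mainly as a corepressor, and lies on chromosome 15 from 97792664 to 97844502 of GRCm38. It had 63, 56 and 48 counts in Ctrl against 113, 94 and 95 counts in Acly M-KO, or 4.25, 4.58 and 3.64 CPM against 7.70, 6.04 and 6.51 CPM. All Acly M-KO libraries were above all Ctrl libraries, although it was the tested gene with the lowest level per transcript length in Ctrl. Its log2 fold change was 0.70 (SE 0.168, edgeR Benjamini-Hochberg adjusted p = 0.00672), with a 95% interval from 0.34 to 1.06, and it kept its call without any 1 library (0.59 to 0.77).

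*Hdac10*, a class IIb enzyme that deacetylates polyamines, had 10.3, 7.36 and 9.78 CPM in Ctrl against 11.9, 13.5 and 11.6 CPM in Acly M-KO (log2 fold change 0.43, SE 0.134, edgeR Benjamini-Hochberg adjusted p = 0.0303). The groups did not overlap, but the second Ctrl library was lower than the others. Without Ctrl 2 the call was lost, as it was without Acly M-KO 1 or Acly M-KO 2 (0.29 to 0.52 over all 6 removals) and with DESeq2 (adjusted p = 0.0640). The other class IIa genes *Hdac4*, *Hdac5* and *Hdac9*, and *Hdac6*, a tubulin deacetylase, did not pass, with log2 fold changes from −0.15 to 0.07.

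Of the class I enzymes, those of *Hdac1*, *Hdac2* and *Hdac3* are catalytic subunits of corepressor complexes. *Hdac3*, the enzyme of the NCoR and SMRT complexes and the highest deacetylase per transcript length, had 46.7, 41.0 and 43.6 CPM in Ctrl against 42.3, 43.5 and 47.1 CPM in Acly M-KO. The groups overlapped, and the 95% interval of the log2 fold change ran from −0.13 to 0.16. *Hdac1* and *Hdac2* had −0.10 and −0.11 and did not pass. *Hdac8*, known as the cohesin deacetylase, had the lowest value of all genes that did not pass (−0.43, interval −0.82 to −0.04, edgeR Benjamini-Hochberg adjusted p = 0.103), and its Ctrl libraries ranged from 6.98 to 12.7 CPM. It passed without Ctrl 3 (−0.61, adjusted p = 0.0218) and without a filter on low counts (adjusted p = 0.0198, both edgeR, Benjamini-Hochberg). Its other transcript had 39, 54 and 35 counts in Ctrl against 39, 52 and 45 counts in Acly M-KO. *Hdac11*, the class IV deacetylase, was below the filter on low counts, with 5, 4 and 8 counts in Ctrl against 12, 3 and 5 counts in Acly M-KO, so that no difference was detectable at this depth.

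Of the 7 sirtuins, 1 rose and 0 fell, a share of 14.3% against 24.9% of all genes. On the lower side *Sirt3* and *Sirt6* had an unadjusted p under 0.05, and DESeq2 and limma-voom called 0. *Sirt1*, a nuclear deacetylase of histones and transcription factors, had 41.3, 39.4 and 38.9 CPM in Ctrl against 46.2, 45.7 and 46.3 CPM in Acly M-KO (log2 fold change 0.21, SE 0.060, edgeR Benjamini-Hochberg adjusted p = 0.0191). The 3 Acly M-KO libraries were nearly equal and all above Ctrl. DESeq2 gave an adjusted p of 0.0775, and the call was lost without Ctrl 3 or any 1 Acly M-KO library (0.18 to 0.23, edgeR Benjamini-Hochberg adjusted p up to 0.0699).

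*Sirt2*, the mainly cytosolic tubulin deacetylase, was the highest of all 42 genes per transcript length. Its levels were 179.5, 177.3 and 169.3 CPM in Ctrl against 168.5, 174.7 and 170.9 CPM in Acly M-KO. The groups overlapped and the 95% interval of the log2 fold change, −0.14 to 0.07, was the narrowest among the sirtuins. The mitochondrial sirtuins, of which *Sirt3* is the main deacetylase and *Sirt5* a desuccinylase, all had values below 0 without passing. For *Sirt3*, *Sirt4* and *Sirt5* the log2 fold changes were −0.37 (edgeR Benjamini-Hochberg adjusted p = 0.0527), −0.21 and −0.28. *Sirt3* is close to the threshold, and fits without Ctrl 2 (adjusted p = 0.0199), with library totals, without a filter on low counts or with summed transcripts put it past it (edgeR, Benjamini-Hochberg). Exons of the opposite strand cover 12.7% of its exonic bases, those of *Psmd13* and *Ric8a*. *Psmd13* rose (log2 fold change 0.20, edgeR Benjamini-Hochberg adjusted p = 0.0116), opposite to *Sirt3*, and *Ric8a* did not pass (0.10, adjusted p = 0.141). Nuclear *Sirt6* had −0.32 and *Sirt7*, the nucleolar sirtuin, 0.11, and their groups overlapped.

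The precision differed between these genes. Of the 29 genes that were tested and did not pass, 24 had a 95% interval that stayed within 0.58 on either side of 0. For *Hdac8*, *Sirt3*, *Sirt4*, *Sirt5* and *Sirt6*, which all had low levels, the interval reached beyond it. For each of the 12 genes that passed, an exact permutation test over the libraries was two-sided with p = 0.10, which is the lower limit of this design with 3 libraries per group. Every gene whose groups do not overlap has this p, also *Kat2a*, *Kat6b*, *Sirt3* and *Brpf3*, which did not pass. It therefore does not set the 12 genes apart and adds no support to their calls.

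The levels were also compared between genes, as RPKM, the CPM divided by the length of the transcript in kilobases. In Ctrl they ranged from 1.01 RPKM for *Hdac7* to 95.9 ± 2.93 RPKM (SD, n = 3) for *Sirt2* among the tested genes. *Brd2* was next to the top in both groups, at 52.8 ± 1.07 RPKM in Ctrl against 90.6 ± 0.96 RPKM in Acly M-KO (SD, n = 3), which brought it close to the 93.7 ± 1.72 RPKM of *Sirt2*. *Ncoa3* followed at 33.8 RPKM in Ctrl against *Sirt7* at 28.8 RPKM. At the low end *Hdac11* had 0.16 RPKM.

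Summed over the class, the bromodomain genes had 175.6 ± 3.32 RPKM in Ctrl against 211 ± 1.37 RPKM in Acly M-KO (SD, n = 3). *Brd2* made up 30.1% of this sum in Ctrl and 42.9% in Acly M-KO, and without it the sums were 122.8 ± 4.03 RPKM and 120.5 ± 0.58 RPKM. The other bromodomain genes together thus had similar sums in both groups. The remaining classes also differed little, with 199 ± 6.05 RPKM and 194.5 ± 0.52 RPKM for acetyltransferases and coactivators, 89.6 ± 2.73 RPKM and 88.6 ± 1.40 RPKM for deacetylases, and 152 ± 5.51 RPKM and 150.1 ± 4.33 RPKM for sirtuins, of which *Sirt2* made up 63.3% in Ctrl and 62.5% in Acly M-KO.

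**Figure D3:**
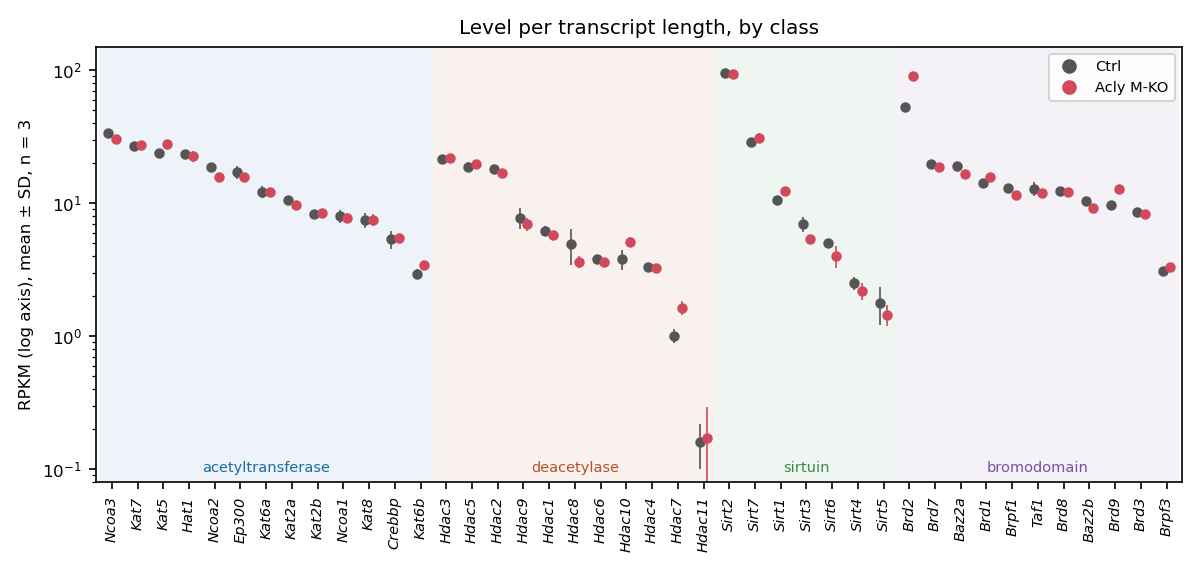
Mean levels of the 42 genes in RPKM on a log axis, by class, in Ctrl and Acly M-KO, with bars for the SD (n = 3). *Sirt2* and *Brd2* are the highest, *Hdac11* is the lowest, and *Brd2* is the gene whose points are far apart at a high level.

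To see whether genes of a family shifted against each other, the ratio of their RPKM was taken within each library for 8 pairs of a changed gene and a relative that did not pass. *Brd2* was at 6.48, 5.57 and 6.59 times the level of *Brd3* in Ctrl and at 10.2, 11.2 and 11.6 times in Acly M-KO. The *Hdac7* to *Hdac4* ratio was 0.30 ± 0.04 in Ctrl and 0.50 ± 0.05 in Acly M-KO (SD, n = 3). *Hdac10* and *Hdac6* were about level in Ctrl, with a ratio of 0.99 ± 0.15, and at 1.41 ± 0.14 in Acly M-KO (SD, n = 3). The ratio of *Brd9* to *Brd7* was 0.49 ± 0.06 and 0.68 ± 0.06, that of *Kat5* to *Kat6a* 1.98 ± 0.18 and 2.29 ± 0.03, and that of *Brpf1* to *Brpf3* 4.23 ± 0.10 and 3.48 ± 0.24 (SD, n = 3). These 6 ratios did not overlap between groups, each with an exact permutation p of 0.10 (two-sided, the smallest possible) and a Benjamini-Hochberg adjusted p of 0.133 over the 8 pairs. The groups overlapped for *Ncoa2* to *Ncoa1* and *Sirt1* to *Sirt7*, with exact permutation p of 0.20 and 0.30. In each family the pair was the changed gene with the largest absolute log2 fold change and the relative with the highest adjusted p. As both were picked from the same libraries, which favors a lack of overlap, the ratios are a description.

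The partners of these enzymes in their complexes were examined in 7 lists with 113 genes, of which 109 were tested and 25 passed (22.9%), with 8 higher and 17 lower. This is again close to the 24.9% of all genes. Among the TIP60 partners of *Kat5* and *Brd8*, 3 of 15 rose and 0 fell. The share that passed was 20%, against 24.9% of all genes (12.4% higher and 12.6% lower). On the CPM scale the scaffold genes *Epc1* and *Epc2* had 34.9 ± 0.91 and 29.3 ± 2.16 in Ctrl against 54.9 ± 1.63 and 41.95 ± 2.63 in Acly M-KO (SD, n = 3), with log2 fold changes of 0.65 and 0.52. The gene of the acetyl-lysine reader *Yeats4* had 0.33. The edgeR Benjamini-Hochberg adjusted p of these 3 genes was at most 0.00345, and all kept their calls without any 1 library. On the lower side of this list 1 gene had an unadjusted p under 0.05, and DESeq2 called 0.

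Among the scaffolds and partners of the other MYST enzymes, 1 of 13 rose and 3 fell (30.8%, against 24.9% of all genes). *Jade2*, a scaffold of *Kat7*, fell from 67.5 ± 1.79 to 44.9 ± 0.57 CPM (SD, n = 3, log2 fold change −0.59, edgeR Benjamini-Hochberg adjusted p = 1.53e-06). *Mcrs1*, a subunit of the NSL complex of *Kat8*, rose by 0.63 on the log2 scale, and *Msl1* and *Phf20* had −0.23 and −0.15. Of the SAGA and ATAC subunits, which work with *Kat2a* and *Kat2b*, 1 of 15 rose (*Taf5l*, 0.26) and 0 fell (6.67%, against 24.9% of all genes). DESeq2 called 0 on the lower side, where 1 had an unadjusted p under 0.05.

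The partners of *Hdac1* and *Hdac2* in the SIN3, NuRD and CoREST complexes had 2 of 29 higher and 8 lower. Their share that passed was 34.5%, against 24.9% of all genes (12.4% higher and 12.6% lower). DESeq2 called 1 higher and 7 lower, and edgeR fits without 1 library called 0 to 2 higher and 6 to 9 lower. The largest decreases were those of *Arid4a* (−0.37), *Mta3* (−0.36) and *Phf21a* (−0.33), a subunit gene of each of the 3 complexes in this order, and the increases were those of *Rbbp7* (0.20) and *Mbd3* (0.17). Both catalytic subunits had values below 0 as well but did not pass. None of 5 NCoR and SMRT subunits of *Hdac3* passed by edgeR, against 24.9% of all genes. There 1 had an unadjusted p under 0.05, and DESeq2 and limma-voom called 0.

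Of 22 tested genes of other bromodomain and YEATS domain readers, 0 rose and 3 fell (13.6%, against 24.9% of all genes). The fallen genes were *Sp140* (−0.36), the histone methyltransferase gene *Kmt2a* (−0.28) and *Baz1b* (−0.23). On the higher side 2 had an unadjusted p under 0.05, and DESeq2 called 0. *Kmt2a* did not pass by DESeq2 (adjusted p = 0.272), nor by edgeR without Ctrl 2 or any 1 Acly M-KO library (−0.38 to −0.11 over all 6 removals).

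Genes of NAD+ metabolism, which provides the cosubstrate of the sirtuins, had 1 of 10 tested genes higher and 3 lower. In this short list the share was 40%, against 24.9% of all genes. The NAD+-consuming ectoenzyme gene *Cd38* had 5.20, 6.46 and 5.39 CPM in Ctrl against 2.05, 2.89 and 2.19 CPM in Acly M-KO, the largest change in any of the lists (log2 fold change −1.24, SE 0.20, edgeR Benjamini-Hochberg adjusted p = 3.17e-04). Its paralog *Bst1* had 13.7, 15.5 and 13.7 CPM in Ctrl against 8.45, 9.39 and 6.64 CPM in Acly M-KO (−0.81, SE 0.132, edgeR Benjamini-Hochberg adjusted p = 3.85e-04). In both genes the highest Acly M-KO library was well under the lowest Ctrl library, and both kept their calls without any 1 library. *Parp2*, whose protein uses NAD+ to make poly(ADP-ribose), fell (−0.36), and *Nmnat1*, the nuclear enzyme of NAD+ synthesis, rose (0.56).

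Several of the partner calls, also of lower SIN3, NuRD and CoREST genes not named here, depended on the method or on 1 library. *Taf5l*, *Mbd3*, *Phf20* and *Nmnat1* had adjusted p of 0.141, 0.126, 0.0850 and 0.119 with DESeq2. Without 1 library, *Taf5l* lost its call for all but Acly M-KO 2 (0.21 to 0.32), *Mbd3* for Ctrl 3 and each Acly M-KO library (0.12 to 0.20), *Phf20* for all but Ctrl 2 (−0.17 to −0.14), *Nmnat1* for all but Ctrl 2 (0.41 to 0.64), *Msl1* for Ctrl 1, Acly M-KO 1 and Acly M-KO 2 (−0.27 to −0.18), and *Rbbp7* (0.16 to 0.23) and *Sp140* (−0.44 to −0.30) for Acly M-KO 2.

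**Figure D4:**
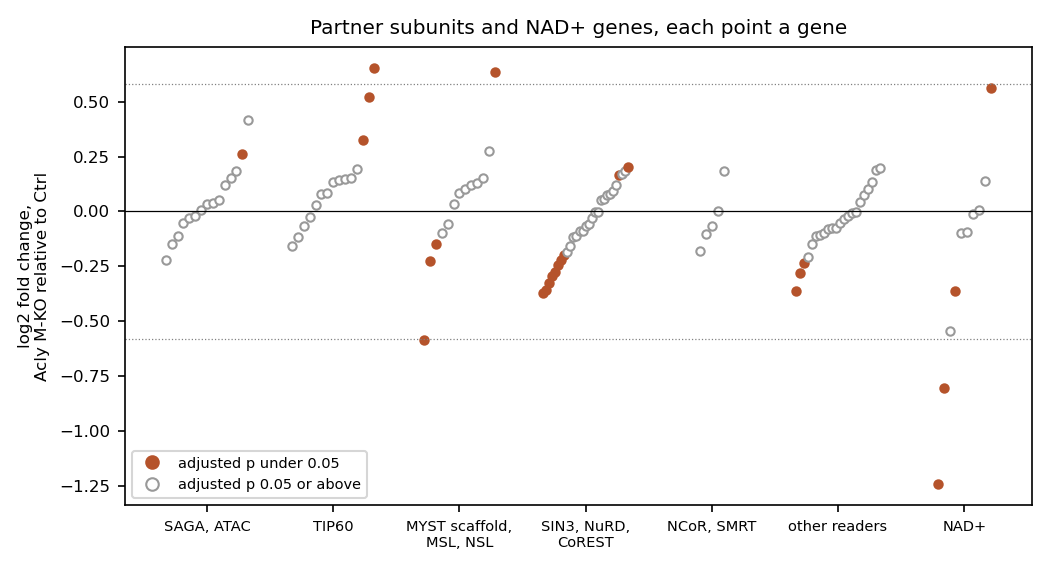
Log2 fold changes, Acly M-KO over Ctrl, of the 109 tested partner genes in 7 lists. Each point is a gene, filled points have an adjusted p under 0.05, and dotted lines mark 0.58 on either side of 0. *Cd38* and *Bst1* lie lowest, in the list of NAD+ metabolism, and *Epc1* and *Mcrs1* lie highest.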

How the data were processed

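The 6 libraries were made from BMDMs treated with IL-4, 3 of them Ctrl and 3 Acly M-KO. From strand-specific mRNA libraries, the authors aligned reads to mm10 with STAR 2.5.2b (CASAVA 1.8.2 is also named) and deposited raw read counts per RefSeq transcript. The counting program is not given in the sources used here. Of 35745 rows, 35440 were paired with gene symbols through RefSeq (GRCm38.p6) and 188 through GENCODE M21. The 117 rows without a gene (0.37% to 1.38% of a library) were left out. A read counts on every isoform that contains it, so the row with the highest total was kept per gene.

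The counts of each gene entered the quasi-likelihood test of edgeR 4.0.16 (R 4.3.3) after filterByExpr and TMM scaling, with genotype as the only term and Benjamini-Hochberg adjustment over 12023 genes. The common biological coefficient of variation was 0.0588. The procedure was tested on simulated data. CPM use TMM-scaled library sizes, and RPKM divide these by GENCODE transcript length. Intervals cover 95%. SE are those of log2 fold changes in the fit of all 6 libraries, and SD are over the 3 libraries of a group. Alternatives were DESeq2 1.42.0, limma-voom (limma 3.58.1), other scalings, filters and row choices, edgeR's glmTreat, a replicate block and the removal of each library. The genes, lists and motifs were chosen with earlier results of these data known. The values in every library are given for genes that passed, for the highest gene per length of each class and for the gene under the filter, and at most 3 genes per direction are named of each partner list. The partner genes *Cecr2*, *Nmnat2*, *Qprt* and *Nnmt* were under the filter. Naive BMDMs were not analysed here.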

Additional observations from a re-analysis of the deposited data

How the results depend on the processing

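*Brd2*, *Hdac7*, *Brd9* and *Ncoa2* passed in each of the 6 fits without a library, and with DESeq2 these 4, *Ncoa3* and *Baz2a* passed. DESeq2 gave 3 of the 41 genes higher and 3 lower, with 0 acetyltransferases, 1 deacetylase and 0 sirtuins higher and 1 bromodomain gene lower. Among partners DESeq2 gave 5 higher in all, with 0 for SAGA and ATAC, 1 for SIN3, NuRD and CoREST and 0 for NAD+. Scaling by library totals gave the same 4 partner values, 1 sirtuin lower and 1 TIP60 partner lower. With limma-voom 0 SAGA and ATAC subunits were higher. Without a filter 1 deacetylase and 1 sirtuin were lower and 1 SIN3, NuRD or CoREST subunit higher. Summed rows gave 1 sirtuin lower, 0 SAGA and ATAC subunits, 1 other reader and 0 NAD+ genes higher, and the row with the lowest total gave 0 acetyltransferases and 1 other reader higher. Against the fold limit itself, glmTreat called 1 of the genes higher in place of 2, and 77 higher and 41 lower over all genes, against 358 and 309. The causes were not tested.

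Without 1 library, 3 to 6 of the genes rose and 1 to 6 fell, against 1002 to 1512 higher and 972 (without Acly M-KO 2) to 1548 lower over all genes. By class these were 0 to 1 acetyltransferases and coactivators, 1 to 2 deacetylases, 0 to 1 sirtuins and 2 to 3 bromodomain genes higher, and 1 to 2, 0 to 1, 0 to 1 and 0 to 3 lower. Of the partners 5 to 10 rose and 11 to 18 fell, with TIP60 at 3 to 4 higher and SIN3, NuRD and CoREST at 0 to 2 higher and 6 to 9 lower. MYST partners lower numbered 1 to 3, other readers 0 to 1 higher and 1 to 4 lower, NAD+ genes 0 to 1 higher and 3 lower, SAGA and ATAC 0 to 1 in either direction and NCoR and SMRT 0 to 1 lower. Past the fold limit, 2 of the genes were higher in each of these fits and 0 to 1 lower.

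The labels do not tie libraries of the same number together, and deviations of same-numbered libraries correlated at −0.07, 0.05 and −0.03. With the replicate block, 3 of the genes fell (1 of them the coactivator gene *Ncoa2*), and 5 partners rose, with 0 for SAGA and ATAC, 1 for SIN3, NuRD and CoREST and 0 for NAD+. *Ncoa3*, *Brd1* and *Brpf1* were the genes whose calls it ended.

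The log2 fold change of 10 genes that did not pass changed sign without 1 library, with ranges of −0.0107 to 0.058 (*Kat2b*), −0.0658 to 0.143 (*Crebbp*), −0.0773 to 0.0758 (*Kat6a*), −0.00322 to 0.0539 (*Kat7*), −0.0888 to 0.103 (*Kat8*), −0.0897 to 0.0506 (*Ncoa1*), −0.0343 to 0.064 (*Hdac3*), −0.0663 to 0.0133 (*Hdac4*), −0.0925 to 0.0128 (*Brd3*) and −0.0704 to 0.0482 (*Brd8*). It also changed sign for *Kat6a* with limma-voom (0.000887) and for *Kat8* (−0.00302) and *Hdac3* (−0.00404) with library totals.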
